A study of Mus musculus with 8 samples.

Results

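The syndecans (Sdc1, Sdc2, Sdc3 and Sdc4) and the glypicans (Gpc1 to Gpc6) are the 10 genes of the mouse genome's 2 families of cell-surface heparan sulfate proteoglycans, taken here by gene symbol from the 27179 genes listed in the count table. Of these 10 genes, 9 passed the filter on low counts and were among the 15583 genes tested. Gpc5 did not pass. The counts come from bulk RNA-seq of cells sorted out of lungs of Eml4-Alk mice, a model of ALK-driven non-small cell lung cancer, with 4 libraries of the QZ1-hi population (QZ1+ in the sample descriptions) and 4 of the QZ1-lo population (QZ1-). The question put to the comparison was how gene expression differed between cells that did and did not carry the signal of QZ1, a quenched peptide probe that becomes fluorescent when a protease cuts it.

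Both populations came from C57BL/6 mice (C57BL/6J in the study's methods) aged 18 to 22 weeks, in which lung tumors had been induced 11 to 12 weeks earlier by an adenovirus that encoded Cas9 and guide RNAs and joined Eml4 to Alk. All mice had received 4.5 nmol of QZ1-(PEG2K) intravenously, and lungs were collected 2 h after it. Live cells without CD45 and CD11b on their surface were then split by QZ1 signal gated against EpCAM. The series design calls the 4 libraries of each population biological replicates, but no source says which libraries of the 2 populations came from 1 mouse, and p-values measure the spread between these samples. In bulk samples, fewer cells of a type and less RNA per cell cannot be told apart.

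Syndecans are transmembrane proteins with a short cytoplasmic tail, whereas glypicans are held on the outer face of the membrane by a GPI anchor. Both carry long heparan sulfate chains, whose sulfated sugars hold growth factors, chemokines, morphogens and matrix proteins at the cell surface. In the lung, syndecan-1 is known as an epithelial proteoglycan and glypican-3 as one expressed strongly in the developing organ.

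The syndecans share the end of their cytoplasmic tail, which PDZ-domain proteins such as syntenin and CASK bind, and it is shown because it is the most direct sequence link among the 4 genes. The last 60 coding bases before the stop codon, 5' to 3' on the coding strand, were read from GENCODE M21 transcripts on GRCm38, and capitals mark the last 12 bases, which encode the last 4 residues.
Sdc1: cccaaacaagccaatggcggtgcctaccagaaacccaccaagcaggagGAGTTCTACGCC
Sdc2: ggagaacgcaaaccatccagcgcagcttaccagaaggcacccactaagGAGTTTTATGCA
Sdc3: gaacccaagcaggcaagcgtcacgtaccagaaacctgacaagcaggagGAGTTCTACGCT
Sdc4: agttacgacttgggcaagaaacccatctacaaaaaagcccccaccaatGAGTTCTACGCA
Of the 12 bases in capitals, 9 were identical in all 4 genes, and the other 3 all lay at the third position of a codon. Over the whole 60 bases, compared position by position from the coding end without gaps, 13 were identical in all 4 genes. The closest pairs were Sdc1 with Sdc3, at 61.7% identical bases, and Sdc2 with Sdc4, at 50%, whereas the other pairs lay between 35% and 41.7%.

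On GRCm38 with GENCODE M21, the syndecans lie on separate chromosomes, with Sdc1 at chr12:8771323-8793715, Sdc2 at chr15:32920723-33034935, Sdc3 at chr4:130792537-130826319 and Sdc4 at chr2:164424247-164443887. Among the glypicans, Gpc1 lies at chr1:92831645-92860779 and Gpc2 at chr5:138273655-138280005. The other glypicans lie in neighboring pairs. Gpc4 (chrX:52053021-52165252) and Gpc3 (chrX:52272426-52613950) are 107 kb apart, and Gpc5 (chr14:115092215-116525179) and Gpc6 (chr14:116925315-117976544) are 400 kb apart. Values span whole genes, since counts were made per gene.

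Total counts per library ranged from 18380918 to 26847938, and 3 counts, the floor used here, corresponded to between 0.0894 and 0.179 CPM, the counts of a gene scaled to a common library size. CPM were scaled by edgeR's TMM method, which corrects for differences in library composition. Mitochondrial and ribosomal RNA genes took up between 39.5% and 58.4% of counts in the QZ1-hi libraries and between 30.3% and 47.4% in the QZ1-lo libraries. Markers of both epithelial and stromal cells were present in both populations. Ptprc, which encodes CD45, was also detected, at a mean of 131 CPM in QZ1-hi and 125 CPM in QZ1-lo, although the sort had removed CD45-positive cells.

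At an adjusted p under 0.05 (edgeR quasi-likelihood test with Benjamini-Hochberg adjustment over all genes tested), Gpc3 and Gpc6 were higher in the QZ1-hi population and Sdc1 was lower. These were 2 of the 9 tested members higher and 1 of 9 lower, where 9.88% of all genes tested were higher and 8.21% were lower. Scaling by library size only changed the split over all genes from 1540 higher and 1280 lower to 882 higher and 2509 lower. Over all genes tested, the median fold change on the log2 scale went from 0.02 to -0.44 with it. The same 2 members were higher and the same member was lower under that scaling. The 4 QZ1-hi libraries did not overlap with the 4 QZ1-lo libraries for Gpc3 and Gpc6, both higher in QZ1-hi, against 11.9% of all genes tested. No member lay wholly lower in the QZ1-hi libraries, against 10.7% of all genes. Over the 9 members the median log2 fold change was 0.60, given as a description only.

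**Figure D1:**
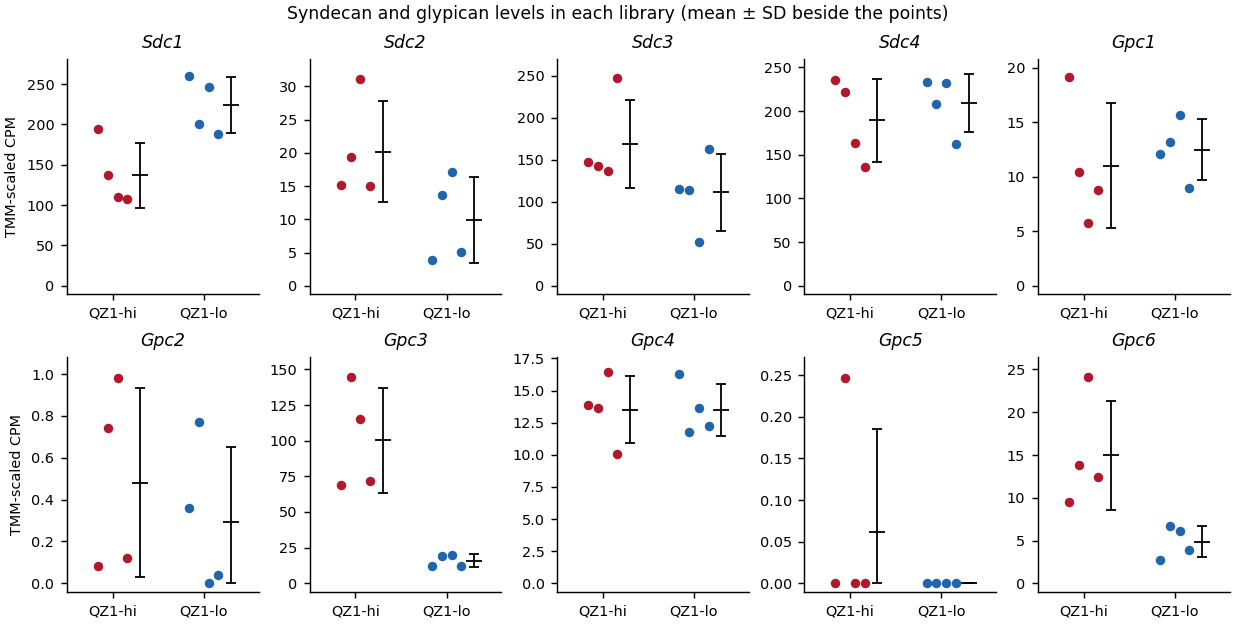
TMM-scaled CPM (linear vertical axes that include 0) of the 10 genes in the 4 QZ1-hi (red) and 4 QZ1-lo (blue) libraries, with the mean and SD beside each group and lower SD bars stopped at 0. The red and blue points do not overlap for Gpc3 and Gpc6, whereas 3 of the 4 red points of Sdc1 lie below all blue ones and Gpc5 was counted in 1 library.

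To compare genes with each other, levels were divided by exonic length and are given as CPM per kb. In QZ1-hi, Sdc4 had the highest mean level at 77.0 CPM per kb, followed by Sdc1 at 43.4, Gpc3 at 37.2 and Sdc3 at 33.8. The ranges of these neighbors overlapped, although Sdc4 was above Sdc1 within each of the 4 QZ1-hi libraries. A gap then separated Sdc3 from Sdc2 at 5.72 CPM per kb, which overlapped with Gpc4 at 5.10, as Gpc4 did with Gpc6 at 4.08 and Gpc6 with Gpc1 at 2.64. Gpc2 at 0.186 CPM per kb lay below every library of Gpc1, and Gpc5 was last at 0.0176.

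In QZ1-lo, Sdc4 was again first at 85.0 CPM per kb and overlapped with Sdc1 at 70.9, although it was above Sdc1 within each of the 4 libraries. Every library of Sdc1 lay above Sdc3 at 22.3 CPM per kb, and every library of Sdc3 above Gpc3 at 5.92. Gpc3 thus stood below Sdc3 here, whereas its mean was above that of Sdc3 in QZ1-hi, and its range overlapped with that of Gpc4 at 5.09 CPM per kb. Gpc1 followed at 2.98, below every library of Gpc4, then Sdc2 at 2.81 and Gpc6 at 1.33, each overlapping with its neighbor above. Within each of the 4 libraries, however, Sdc2 was above Gpc6. Gpc2 at 0.113 CPM per kb lay below Gpc6 without overlap, and Gpc5 had no counts.

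Sdc1 encodes syndecan-1, the main syndecan of epithelia and also a surface protein of plasma cells. It measured 194, 137, 110 and 108 CPM in QZ1-hi replicates 1 to 4 and 260, 201, 247 and 188 CPM in QZ1-lo replicates 1 to 4. QZ1-hi replicate 1 fell within the QZ1-lo range, and the other QZ1-hi libraries lay below every QZ1-lo library. QZ1-hi libraries averaged 137 ± 40.3 CPM (SD, n = 4) and QZ1-lo libraries 224 ± 34.8 CPM (SD, n = 4). This gave a log2 fold change of -0.71 ± 0.20 (SE, 95% interval -1.14 to -0.28, edgeR adjusted p = 0.0275), or a 1.63-fold higher level in QZ1-lo. The call rested on single libraries. Without QZ1-lo replicate 1 the edgeR adjusted p was 0.0782, and without QZ1-lo replicate 3 it was 0.0677. Without QZ1-hi replicate 2, 3 or 4 it was 0.0538, 0.0652 and 0.0700. The direction was the same under all 16 alternative settings, with the most negative value, -1.14, under scaling by library size only, where the median of all genes was -0.44.

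Epithelial markers differed between the populations, in part in the direction of Sdc1. Of 10 alveolar epithelial markers, 6 were lower and 1 (Sftpc) was higher in QZ1-hi. Their summed level ranged from 5174 to 9552 CPM in QZ1-hi and from 4715 to 7136 CPM in QZ1-lo. Most of that sum came from Sftpc, at means of 4064 CPM in QZ1-hi and 2371 CPM in QZ1-lo, and Sftpb, which was not called. The means of Sftpb were 2004 and 1526 CPM, so the sum says little of the 6 lower markers. All 6 airway epithelial markers were lower in QZ1-hi, with sums between 291 and 871 CPM against 1325 to 3715 CPM in QZ1-lo. Within each population, however, the airway sum was lowest in replicate 1, the library with the most Sdc1. The highest airway sum, 3715 CPM, was in QZ1-lo replicate 2, where Sdc1 measured 201 CPM. The sums of 5 plasma cell markers overlapped, at 5.48 to 8.59 CPM in QZ1-hi and 3.62 to 20.5 CPM in QZ1-lo, and Tnfrsf17 was at 0 in every library. Igkc had the highest mean of the 5, at 5.78 CPM in QZ1-hi and 6.89 CPM in QZ1-lo. None of the 3 plasma cell markers tested was called. Mzb1, too low for the test, had 1 count over the QZ1-hi libraries and 36 over the QZ1-lo libraries, without overlap. Jchain had 86 and 76 counts. The part of these markers in the Sdc1 difference was not tested.

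Sdc2 encodes syndecan-2, a syndecan known from mesenchymal cells. It measured 15.2, 19.4, 31.1 and 15.0 CPM in QZ1-hi replicates 1 to 4 and 3.88, 13.6, 17.1 and 5.03 CPM in QZ1-lo replicates 1 to 4. QZ1-hi replicates 2 and 3 lay above every QZ1-lo library, and the other pair of QZ1-hi libraries fell between QZ1-lo replicates 2 and 3. QZ1-hi libraries averaged 20.2 ± 7.57 CPM (SD, n = 4) and QZ1-lo libraries 9.91 ± 6.48 CPM (SD, n = 4), with a log2 fold change of 1.03 ± 0.44 (SE, edgeR adjusted p = 0.148). The 95% interval, 0.06 to 1.99, spanned from almost no difference to a large one. Only limma-voom, among the 16 alternative settings, called it, with a log2 fold change of 1.42 and an adjusted p of 0.0256.

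Sdc3 encodes syndecan-3, best known from the nervous system. It measured 147, 142, 137 and 247 CPM in QZ1-hi replicates 1 to 4 and 115, 114, 51.7 and 162 CPM in QZ1-lo replicates 1 to 4. The highest library of each population was replicate 4, and QZ1-lo replicate 4 exceeded the other 3 QZ1-hi libraries. The mean was 168 ± 52.6 CPM (SD, n = 4) against 111 ± 45.4 CPM (SD, n = 4), with a log2 fold change of 0.60 (SE 0.30, 95% interval -0.06 to 1.27) that did not pass the test (adjusted p = 0.219, edgeR). It was not called under any of the 16 alternative settings, in which it ranged from 0.10 to 0.84. Its exons overlap by 463 bases with Gm12970 and Gm26716 on the opposite strand, and since the strand setting of the counting was not given in the sources used here, their reads cannot be told apart there.

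Leukocyte markers varied between the same libraries. The summed level of 7 leukocyte markers was 134, 177, 197 and 336 CPM in QZ1-hi replicates 1 to 4 and 190, 214, 162 and 248 CPM in QZ1-lo replicates 1 to 4. Replicate 4 was highest in each population and QZ1-lo replicate 3 was lowest in its population, as for Sdc3, but QZ1-hi replicate 1 had the lowest sum of all 8 libraries at an Sdc3 level above that of QZ1-hi replicates 2 and 3. Most of the sum came from Ptprc, Itgam and Adgre1, and Cd3e was lowest among the QZ1-hi libraries in replicate 4, at 0.775 CPM. None of the 5 leukocyte markers tested was called between the populations, the 2 ranges overlapped, and no leukocyte marker was at or under the floor in every library. The part of these markers in the level of Sdc3 was not tested.

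Sdc4 encodes syndecan-4, a component of focal adhesions in many cell types. It measured 235, 222, 164 and 136 CPM in QZ1-hi replicates 1 to 4 and 233, 208, 232 and 163 CPM in QZ1-lo replicates 1 to 4. The ranges overlapped almost fully. QZ1-hi libraries averaged 189 ± 47.0 CPM (SD, n = 4) and QZ1-lo libraries 209 ± 33.0 CPM (SD, n = 4). The log2 fold change of -0.14 ± 0.19 (SE, edgeR adjusted p = 0.687) had a 95% interval of -0.55 to 0.27, so that a difference of over 1 log2 unit lay outside it. Without QZ1-hi replicate 4 the value was 0.02.

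Gpc3 encodes glypican-3, which binds hedgehog and Wnt proteins and whose loss causes an overgrowth syndrome in humans. It measured 68.9, 145, 115 and 71.6 CPM in QZ1-hi replicates 1 to 4 and 11.8, 19.4, 20.2 and 12.3 CPM in QZ1-lo replicates 1 to 4. The lowest QZ1-hi library lay well above the highest QZ1-lo library. QZ1-hi libraries averaged 100.1 ± 36.5 CPM (SD, n = 4) and QZ1-lo libraries 15.9 ± 4.48 CPM (SD, n = 4). The log2 fold change was 2.65 ± 0.28 (SE, 95% interval 2.04 to 3.27, edgeR adjusted p = 0.000278), a 6.29-fold higher level in QZ1-hi. Gpc3 was called higher under all 16 alternative settings, in which the log2 fold change ranged from 2.19 to 2.82.

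Because Gpc3 had the largest fold change among the 9 tested members, the sequence before its start is shown. The 250 bases at chrX:52613975-52614224 of GRCm38.p6, from RefSeq, are written 5' to 3' on the minus strand, with GC-box matches (GGGCGG or, on the other strand, CCGCCC) in capitals.
Gpc3 promoter: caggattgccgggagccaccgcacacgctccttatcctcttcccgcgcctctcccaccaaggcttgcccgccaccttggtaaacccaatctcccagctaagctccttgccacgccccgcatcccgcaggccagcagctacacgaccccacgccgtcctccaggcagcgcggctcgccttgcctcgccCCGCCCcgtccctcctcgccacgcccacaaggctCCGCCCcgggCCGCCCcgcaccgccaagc
This window held 3 such matches and no TATA-box match (TATAAA on either strand). A GC box was found in 32.7% and a TATA box in 12.4% of 32851 mouse promoter windows of the same length. The Gpc3 window was also rich in G and C, at 71.6% against a median of 52.4% over those windows. The 250-base window of Sdc1, which moved in the opposite direction, also held 3 GC-box matches and no TATA-box match. These counts did not separate the 2 genes. Only 177 bases of the Sdc1 window lie before its GENCODE start, and not all of its matches lie there, so the 2 windows differ in position. The matches describe the sequence and are not evidence of binding.

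Gpc6 encodes glypican-6, which is known for a role in hedgehog-dependent growth of the intestine. It measured 9.45, 13.8, 24.2 and 12.4 CPM in QZ1-hi replicates 1 to 4 and 2.77, 6.71, 6.15 and 3.89 CPM in QZ1-lo replicates 1 to 4. The populations did not overlap, and QZ1-hi replicate 3 was the highest library. The mean was 14.9 ± 6.41 CPM (SD, n = 4) against 4.88 ± 1.86 CPM (SD, n = 4). The log2 fold change was 1.61 ± 0.35 (SE, 95% interval 0.85 to 2.38, edgeR adjusted p = 0.0078), a 3.06-fold higher level in QZ1-hi. Gpc6 was called higher under all 16 alternative settings, with log2 fold changes between 1.19 and 1.81.

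Markers of several stromal cell types were higher in the same libraries as Gpc3 and Gpc6. Of 13 tested fibroblast markers 8 were higher, and the sum of all 15 ranged from 1763 to 2854 CPM in QZ1-hi and from 582 to 1033 CPM in QZ1-lo. Fn1 was the largest part of that sum, at means of 1259 CPM in QZ1-hi and 602 CPM in QZ1-lo. All 3 mesothelial markers were higher, with sums of 29.7 to 208 CPM against 5.44 to 27.5 CPM. The fibroblast and mesothelial sums were both highest in QZ1-hi replicate 2, the library with the most Gpc3. Among the QZ1-hi libraries, however, the mesothelial sum was lowest in replicate 3, where Gpc3 measured 115 CPM. For 6 pericyte markers, 4 of them higher, the sums were 186 to 324 CPM and 19.9 to 59.2 CPM. For 16 endothelial markers, 14 of them higher, they were 1608 to 3285 CPM and 340 to 580 CPM. Nes was the largest part of the pericyte sums, at means of 155 CPM in QZ1-hi and 21.1 CPM in QZ1-lo. The pericyte and endothelial sums were both highest in QZ1-hi replicate 3, the library with the most Gpc6. They were next highest in QZ1-hi replicate 1, at 235 and 2488 CPM, the QZ1-hi library with the least Gpc6. None of these 4 marker lists had a gene at or under the floor in every library. The 3 smooth muscle markers had sums of 13.3 to 27.5 CPM against 7.45 to 12.1 CPM, with Tagln higher and Cnn1 lower. The part of these markers in the 2 glypican differences was not tested.

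Gpc4 encodes glypican-4, which acts on Wnt and BMP signaling and is the neighbor of Gpc3 on the X chromosome. It measured 13.9, 13.7, 16.5 and 10.1 CPM in QZ1-hi replicates 1 to 4 and 16.3, 11.8, 13.7 and 12.2 CPM in QZ1-lo replicates 1 to 4. The QZ1-lo range lay within the QZ1-hi range. QZ1-hi libraries averaged 13.5 ± 2.63 CPM (SD, n = 4) and QZ1-lo libraries 13.5 ± 2.02 CPM (SD, n = 4), with a log2 fold change of 0.00 ± 0.19 (SE, edgeR adjusted p = 0.996). The 95% interval, -0.42 to 0.42, lay wholly below that of its neighbor Gpc3, although no test was made between genes. The sign of so small a value changed with the setting, and under scaling by library size only it was -0.45, close to the median of all genes of -0.44.

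The ratio of counts of the 2 neighbors does not depend on scaling. In the QZ1-hi libraries, the log2 ratio of Gpc3 to Gpc4 counts ranged from 2.31 to 3.40, and in the QZ1-lo libraries from -0.46 to 0.72, without overlap. The log2 ratio of Gpc3 to Gpc6 counts, both called higher, also did not overlap, at 2.26 to 3.39 in QZ1-hi and 1.53 to 2.09 in QZ1-lo. For Sdc1 to Sdc4 it ranged from -0.69 to -0.28 in QZ1-hi and from -0.05 to 0.21 in QZ1-lo. The log2 ratio of Sdc1 to Sdc3 counts overlapped between the populations, at -1.20 to 0.40 in QZ1-hi and 0.21 to 2.26 in QZ1-lo. These ratios are descriptions, without a test.

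**Figure D2:**
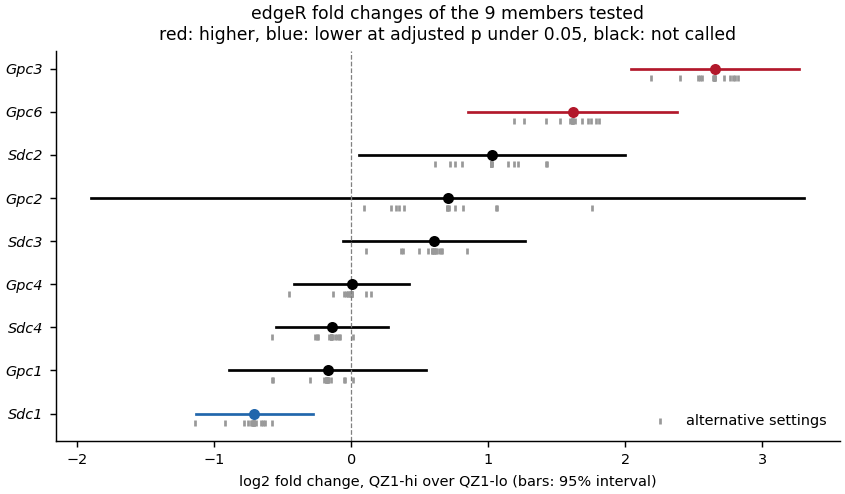
Log2 fold change of QZ1-hi over QZ1-lo (horizontal axis) for the 9 tested members, with points for the edgeR estimate, bars for its 95% interval and grey ticks for the alternative settings. All ticks of Gpc3, from 2.19 to 2.82, and of Gpc6, from 1.19 to 1.81, lie above 0, all of Sdc1 lie below 0, and those of Gpc4 fall on both sides.

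Gpc1 encodes glypican-1, a widely expressed co-receptor of fibroblast growth factors. It measured 19.1, 10.4, 5.72 and 8.82 CPM in QZ1-hi replicates 1 to 4 and 12.1, 13.2, 15.7 and 8.92 CPM in QZ1-lo replicates 1 to 4. The highest and the lowest of the 8 libraries were both QZ1-hi libraries. QZ1-hi libraries averaged 11.0 ± 5.74 CPM (SD, n = 4) and QZ1-lo libraries 12.5 ± 2.80 CPM (SD, n = 4), with a log2 fold change of -0.17 ± 0.33 (SE, 95% interval -0.89 to 0.54, edgeR adjusted p = 0.791). Without QZ1-hi replicate 1 it was -0.58, and without QZ1-hi replicate 3 it was 0.01. Its exons overlap by 977 bases with Ankmy1 on the opposite strand, whose reads cannot be told apart there.

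Gpc2 and Gpc5 were near the limit of detection. Gpc2, a glypican of the developing nervous system, had 36 counts summed over the QZ1-hi libraries and 32 over the QZ1-lo libraries. It measured 0.0847, 0.741, 0.983 and 0.119 CPM in QZ1-hi replicates 1 to 4 and 0.358, 0.773, 0 and 0.0409 CPM in QZ1-lo replicates 1 to 4. The groups overlapped over most of their range, and the log2 fold change was 0.70 ± 1.18 (SE, edgeR adjusted p = 0.763), with a 95% interval of -1.90 to 3.30. Its counts are uncertain, since 49.7% of its exonic stretches of 50 bases also occur in Gm43720, which overlaps it on the same strand. Gpc5 had 5 counts in QZ1-hi replicate 2, or 0.247 CPM, and 0 counts in the other 7 libraries. At these depths, 0 counts allow a level of up to 0.0894 to 0.179 CPM per library, which covers counting error only, so the absence of Gpc5 from either population was not shown.

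The make-up of each family was then compared as the share of each gene in the family's summed CPM per kb, which is free of scaling between libraries. The glypican sum did not overlap between the populations, at 36.0 to 65.6 CPM per kb in QZ1-hi and 12.4 to 18.1 in QZ1-lo. The syndecan sum overlapped, at 138 to 191 CPM per kb in QZ1-hi and 160 to 201 in QZ1-lo. Unlike the shares, these sums are TMM-scaled.

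Gpc3 made up 67.3% to 82.0% of the glypican sum in QZ1-hi and 30.7% to 42.6% in QZ1-lo. Gpc4 made up 7.87% to 13.7% in QZ1-hi and 26.2% to 42.9% in QZ1-lo, and Gpc1 made up 2.39% to 12.0% and 17.2% to 20.7%. None of these 3 shares overlapped between the populations. The levels of Gpc4 and Gpc1 were not called, and a higher level of Gpc3 by itself lowers their shares of the sum. The share of Gpc6 overlapped, at 5.74% to 11.5% in QZ1-hi and 5.28% to 10.8% in QZ1-lo, although its level was called higher.

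Among the syndecans, Sdc4 made up 38.6% to 53.8% of the sum in QZ1-hi and 41.4% to 50.3% in QZ1-lo, with full overlap. Sdc1 made up 23.8% to 32.2% in QZ1-hi and 36.4% to 41.6% in QZ1-lo, so that its share did not overlap although its CPM did. Sdc3, at 15.5% to 34.7% against 5.53% to 20.4%, and Sdc2, at 2.26% to 6.40% against 0.546% to 2.58%, each overlapped. Shares within a sum depend on each other, and no test was made of them.

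**Figure D3:**
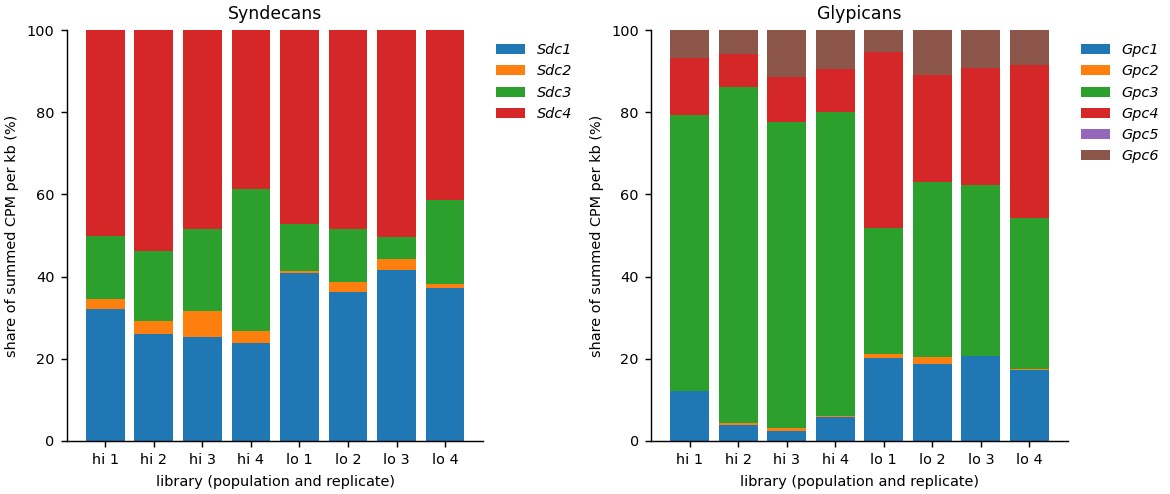
Share of each gene (%, vertical axis) in the summed CPM per kb of the 4 syndecans (left) and the 6 glypicans (right), with 1 bar for each library. Gpc3 takes 67.3% to 82.0% of the glypican bar in the 4 QZ1-hi libraries and 30.7% to 42.6% in the 4 QZ1-lo libraries, and the share of Sdc1 is smaller in every QZ1-hi library than in any QZ1-lo library.

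For each tested member, the genes with the most similar profile were those with the smallest root mean square difference in log2 CPM over the 8 libraries, each profile centered on its own mean. For Gpc3 they were Clip3 (0.188), Zcchc24 (0.216) and Gpx3 (0.273), and for Gpc6 they were Pdzd2 (0.174), Ttc28 (0.196) and Synm (0.210). For Sdc2, Itga11 (0.262), Macroh2a2 (0.294) and Fhl1 (0.336) were nearest. These distances describe 8 libraries only.

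For Sdc1, the nearest profiles were Sorcs2 (0.109), Serinc5 (0.116) and Tmem254b (0.124), for Sdc3 Mfsd12 (0.105), AI662270 (0.116) and Akr1c13 (0.143), and for Sdc4 Rhbdf1 (0.100), Ckap4 (0.105) and Tefm (0.106). For Gpc1 they were Coq6 (0.177), Gm15455 (0.201) and Tsen54 (0.224), and for Gpc4 they were Exosc10 (0.0710), Phc2 (0.0918) and Ncaph2 (0.0943). Gpc2, with few counts, had no gene nearer than Prcd (0.593). Among the members themselves, the closest pair was Sdc4 with Gpc4 (0.256), followed by Sdc1 with Sdc4 (0.318) and Sdc4 with Gpc1 (0.346). Sdc2 was nearest to Gpc6 (0.381), and Gpc3 and Gpc6 were 0.609 apart. As a measure of its own spread, the root mean square of the centered profile was 0.220 for Gpc4 and 0.284 for Sdc4. It was 1.37 for Gpc3 and 0.940 for Gpc6. The distance between Sdc4 and Gpc4 exceeded the spread of Gpc4, so closeness there reflects little variation more than a shared pattern.

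The chains that syndecans and glypicans carry are built, sulfated, trimmed and released by other genes, which were taken as 7 lists with 63 genes in all. Of the 53 that were tested, 11 were higher and 5 were lower in QZ1-hi, where 9.88% and 8.21% of all genes were, and their median log2 fold change was 0.22 against 0.02 over all genes. Without QZ1-hi replicate 2, 7 were higher. With scaling by library size only, 4 were higher and 8 were lower.

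**Figure D4:**
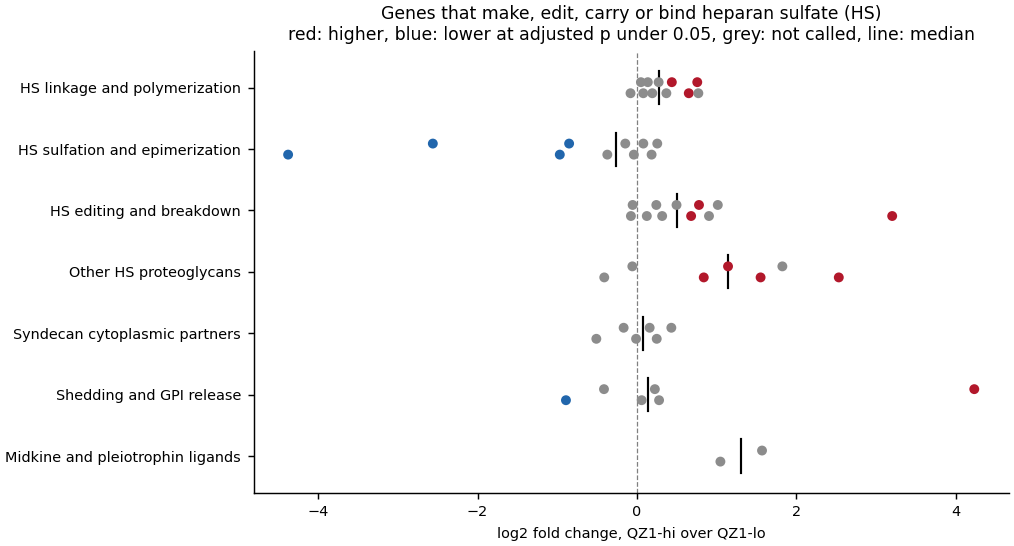
Log2 fold change of QZ1-hi over QZ1-lo (horizontal axis) of the tested genes in the 7 heparan sulfate lists (rows), with 1 point for each gene and a vertical line at each list's median. In the sulfation list 4 genes are lower and none is higher, in the list of other proteoglycans 4 are higher and none is lower, and the outermost blue and red points, Hs3st6 and Notum, rest on few counts in one population.

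Of the 11 genes that build the linkage region and polymerize the chain, 3 were higher, none was lower, and the median log2 fold change was 0.27. Extl3, which starts the heparan sulfate chain, measured between 28.3 and 39.2 CPM in QZ1-hi and between 16.8 and 22.1 CPM in QZ1-lo (log2 fold change 0.76 ± 0.15 SE, edgeR adjusted p = 0.00457). Ext2, a subunit of the chain polymerase, measured 26.8 to 35.8 CPM against 17.3 to 22.6 CPM (0.65 ± 0.15 SE, edgeR adjusted p = 0.0112). For Ext1, its partner subunit, the log2 fold change was 0.44 ± 0.12 (SE, edgeR adjusted p = 0.0261), which turned to -0.01 with scaling by library size only. All 3 genes lost the call under that scaling, where Extl3 was at 0.28 and Ext2 at 0.18. Ext1 also lost it without any one of QZ1-hi replicate 1 or 2 or QZ1-lo replicate 1, 2 or 4, at edgeR adjusted p between 0.0578 and 0.0778.

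Of 16 genes of chain sulfation and epimerization, 10 were tested, 4 were lower, none was higher, and the median was -0.26. Hs2st1, the 2-O-sulfotransferase, measured 43.4, 35.7, 29.3 and 35.0 CPM in QZ1-hi and 84.4, 65.9, 65.2 and 65.3 CPM in QZ1-lo (log2 fold change -0.97 ± 0.15 SE, edgeR adjusted p = 0.00115). Hs6st1, a 6-O-sulfotransferase, measured 26.1, 27.3, 19.4 and 33.7 CPM in QZ1-hi and 46.2, 48.5, 49.8 and 47.8 CPM in QZ1-lo (-0.85 ± 0.16 SE, edgeR adjusted p = 0.00323). Neither gene overlapped between the populations, and both were lower under all 16 alternative settings. Hs6st1 shares 447 exonic bases with Gm37335 on the opposite strand, whose reads cannot be told apart there.

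Hs6st2, a second 6-O-sulfotransferase, measured 0.173 to 1.93 CPM against 2.37 to 6.35 CPM (log2 fold change -2.56 ± 0.64 SE, edgeR adjusted p = 0.0176), and without QZ1-lo replicate 2 its edgeR adjusted p was 0.0533. Hs3st6, a 3-O-sulfotransferase, had 5 counts over the QZ1-hi libraries and 153 over the QZ1-lo libraries. With each QZ1-hi library set at the floor of 3 counts, the group mean was at least 9.21-fold lower in QZ1-hi (adjusted p = 0.00836, edgeR), a ratio of means that leaves out the spread of the QZ1-lo libraries, 0.835 to 2.36 CPM. Ndst1, which starts sulfation of the chain, was not called, with QZ1-hi libraries at 82.4 ± 10.2 CPM (SD, n = 4) and QZ1-lo libraries at 91.3 ± 2.97 CPM (SD, n = 4).

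**Figure D5:**
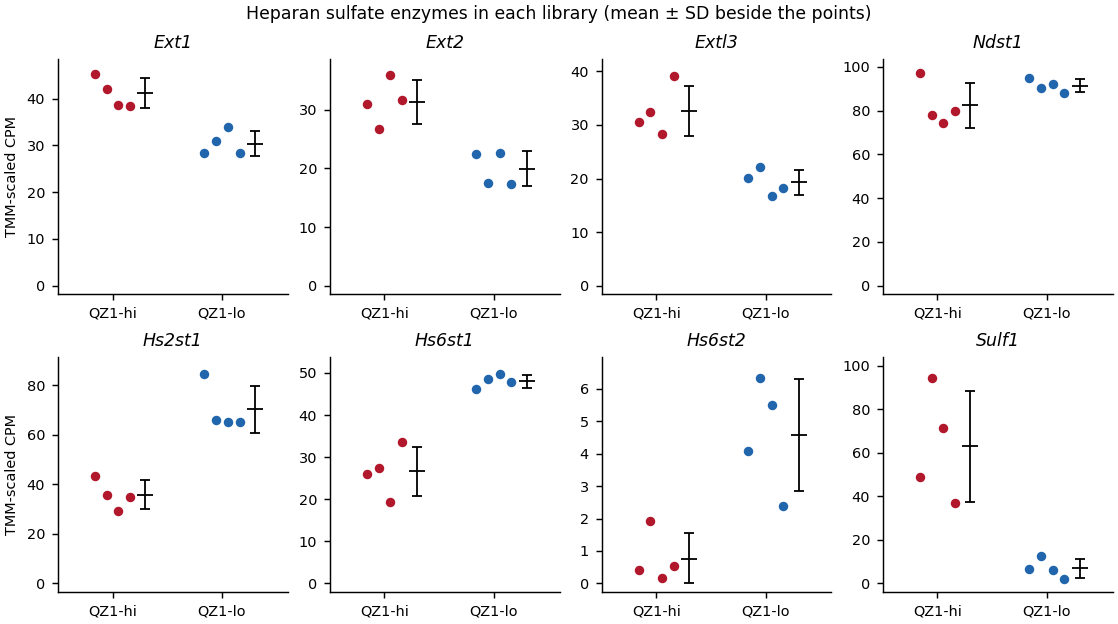
TMM-scaled CPM (linear vertical axes that include 0) of 8 heparan sulfate enzymes in the 4 QZ1-hi (red) and 4 QZ1-lo (blue) libraries, with mean and SD beside the points and lower SD bars stopped at 0. Sulf1, Ext1, Ext2 and Extl3 are higher and Hs2st1, Hs6st1 and Hs6st2 lower in QZ1-hi without overlap, although the fold change of Ext1 turns to -0.01 on the log2 scale with scaling by library size only, whereas the ranges of Ndst1 overlap.

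Of 12 genes that edit or break down the chain, 11 were tested, 3 were higher, none was lower, and the median was 0.50. Sulf1, a sulfatase that removes 6-O-sulfates outside the cell, measured 49.1, 94.6, 71.6 and 36.9 CPM in QZ1-hi and 6.71, 12.7, 6.01 and 1.92 CPM in QZ1-lo. Its groups did not overlap, and the log2 fold change was 3.20 ± 0.47 (SE, edgeR adjusted p = 0.000982). Sulf2, the other such sulfatase, had a log2 fold change of 0.90 (SE 0.29) that just missed the threshold (adjusted p = 0.0560, edgeR), and it was called under 5 of the 16 alternative settings. Hs6st1 encodes an enzyme that adds the 6-O-sulfate. The log2 ratio of its counts to those of Sulf1 ranged from -1.88 to -0.13 in QZ1-hi and from 1.93 to 4.63 in QZ1-lo. Since Hs6st1 was lower and Sulf1 higher without overlap, that separation restates their levels. For Hs6st1 to Sulf2 the ratio ranged from -2.17 to -1.18 in QZ1-hi and from -0.46 to 1.28 in QZ1-lo. These ratios are of RNA and say nothing of the sulfation of the chains, which was not measured.

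Hpse, the heparanase that cuts the chain, and Hgsnat, a lysosomal enzyme of chain breakdown, had log2 fold changes of 0.78 ± 0.20 (SE, edgeR adjusted p = 0.0202) and 0.68 ± 0.20 (SE, edgeR adjusted p = 0.0389). Both lost the call with scaling by library size only. Hpse lost it without QZ1-hi replicate 1 or 3 or QZ1-lo replicate 1, at edgeR adjusted p between 0.0578 and 0.0617. Hgsnat lost it without QZ1-hi replicate 1, 2 or 3 or QZ1-lo replicate 2 or 4, at edgeR adjusted p between 0.0640 and 0.126.

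Heparan sulfate is also carried by proteoglycans outside the 2 families. Of 8 listed, 7 were tested, 4 were higher, none was lower, and the median was 1.14. Tgfbr3 (betaglycan), a membrane co-receptor of TGF-beta, measured 47.3, 66.3, 98.8 and 58.0 CPM in QZ1-hi and 6.65, 13.5, 18.4 and 8.19 CPM in QZ1-lo (log2 fold change 2.53 ± 0.33 SE, edgeR adjusted p = 0.000548). Its change, like that of Gpc3, had no overlap between the populations. Col18a1 and Hspg2, which encode the basement membrane proteoglycans collagen XVIII and perlecan, had log2 fold changes of 1.55 ± 0.31 (SE, edgeR adjusted p = 0.00501) and 1.14 ± 0.24 (SE, edgeR adjusted p = 0.00703). Spock2 (testican-2), at 0.84 ± 0.25 (SE, edgeR adjusted p = 0.0374), lost its call with scaling by library size only and without QZ1-hi replicate 2 or 3 or QZ1-lo replicate 1, 3 or 4, at edgeR adjusted p between 0.0626 and 0.123 for the latter. Hspg2 lost its call only with scaling by library size, at 0.68.

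Of the 6 genes whose proteins bind the syndecan tail none was called, and their median log2 fold change was 0.07. Sdcbp, which encodes syntenin, had a log2 fold change of 0.16 ± 0.14 (SE, edgeR adjusted p = 0.511), and Cask had one of -0.17 ± 0.14 (SE, edgeR adjusted p = 0.506).

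Of 8 genes for enzymes that shed syndecans or release GPI-anchored glypicans, 6 were tested, 1 was higher, 1 was lower, and the median was 0.14. Notum, which removes lipid from Wnt proteins and was first described as cutting glypican anchors, had 162 counts in QZ1-hi and 12 in QZ1-lo, 11 of them in QZ1-lo replicate 1 (log2 fold change 4.23 ± 1.10 SE, edgeR adjusted p = 0.0205). Without QZ1-lo replicate 1 its fitted value was 6.71, which then rests on 1 count in QZ1-lo and is no bound, and without QZ1-hi replicate 1 or 2 or QZ1-lo replicate 4 its edgeR adjusted p was 0.0573, 0.0615 and 0.0548. Its exons overlap by 918 bases with Notumos and Myadml2os on the opposite strand. Mmp9, a metalloproteinase that can shed syndecans, measured 11.7, 12.2, 12.7 and 22.8 CPM in QZ1-hi and 24.9, 26.3, 31.5 and 27.2 CPM in QZ1-lo (-0.89 ± 0.22 SE, edgeR adjusted p = 0.0154). Adam10, another sheddase, had a log2 fold change of -0.41 ± 0.13 (SE, edgeR adjusted p = 0.0505) and was called lower under 8 of the 16 alternative settings.

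Mdk and Ptn, which encode midkine and pleiotrophin, ligands that bind syndecan-3 and other heparan sulfate proteoglycans, had 116 and 94 counts in QZ1-hi and 48 and 62 in QZ1-lo. Neither was called, with log2 fold changes of 1.57 ± 1.11 (SE, edgeR adjusted p = 0.406) and 1.05 ± 0.60 (SE, edgeR adjusted p = 0.291). The stromal and epithelial marker sums given above for Gpc3, Gpc6 and Sdc1 differed between the same libraries, and their part in the differences of the heparan sulfate genes was not tested.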

How the data were processed

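RNA of 4 QZ1-hi and 4 QZ1-lo sorted populations was sequenced from libraries made with a stranded total RNA kit. The deposited values are raw, unnormalized counts, which the authors obtained from BAM files with Rsubread. The submitters' processing notes name mm10 and DESeq2. The aligner, annotation and strand setting are not given in the sources used here. Of 27179 Entrez Gene identifiers, 25275 were given a symbol, and all 148 listed genes were matched.

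The populations were compared with edgeR 4.0.16 in R 4.3.3 (TMM scaling, filterByExpr with a minimum count of 10 and a minimum total of 15, quasi-likelihood test, Benjamini-Hochberg adjustment over 15583 genes, threshold 0.05). Positive log2 fold changes mean higher in QZ1-hi. Each SE was obtained as the absolute log2 fold change over the square root of F, and 95% intervals use edgeR's degrees of freedom. Intervals and floors cover no more than the spread or counting error of these reads, which carry no molecular identifiers. Replicate numbers follow the order of deposit and link no libraries. Levels per kb use GENCODE M21 exonic lengths on GRCm38. Promoters are RefSeq windows, in which Sdc2, Gpc1 and Gpc6 had no entry.

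The members and lists were chosen with earlier results of these data known. All 10 members are named. From the heparan sulfate lists, called genes are named, with at most the 3 largest changes per list and direction, plus enzymes and partners that act on the members. Spock2 lies outside that rule, and naming it was decided with its values in view. The 3 most similar profiles are named for each member. The procedure was tested on simulated data. Alternatives were DESeq2 1.42.0, limma-voom (limma 3.58.1) with quality weights, DESeq2 size factors, scaling by library size only, no filter, at least 10 counts in every library, a robust fit, removal of mitochondrial and ribosomal RNA genes, a threshold of 0.01, and leaving out every library once.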

Additional observations from a re-analysis of the deposited data

Results flagged for a closer look

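In 5 of 57 groups of 4 libraries, 1 library stood apart from the other 3 by Dixon's criterion, which chance meets in about 1 of 20 groups. Sdc3 measured 247 CPM in QZ1-hi replicate 4, where the other QZ1-hi libraries measured 137 to 147 CPM. The same library had the highest sum of leukocyte markers (336 CPM), and whether these account for its Sdc3 level was not tested. Gpc5 measured 0.247 CPM in QZ1-hi replicate 2 and 0 in the other QZ1-hi libraries. Hs2st1 measured 84.4 CPM in QZ1-lo replicate 1, where the rest of that population measured 65.2 to 65.9 CPM. Notum measured 0.328 CPM in QZ1-lo replicate 1, against 0 to 0.0409 CPM. Mmp9 measured 22.8 CPM in QZ1-hi replicate 4, against 11.7 to 12.7 CPM in the other QZ1-hi libraries.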

How the results depend on the processing

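The 2 members called higher stayed at 2 under 16 of 17 alternatives and became 3 with limma-voom, which added Sdc2. The 1 member called lower, Sdc1, became 0 at an adjusted p under 0.01, and leaving out single libraries gave 0 to 1. Scaling by library size only gave 4 heparan sulfate genes higher and 8 lower, and 882 of all genes higher and 2509 lower. An adjusted p under 0.01 gave 5 and 3 heparan sulfate genes and 902 and 665 of all genes. Leaving out single libraries gave 7 to 12 heparan sulfate genes higher and 4 to 6 lower, and 1136 to 1506 of all genes higher and 938 to 1201 lower. The stricter threshold calls fewer by construction, and for the others the cause was not tested. Signs turned for 4 genes. Gpc4, at 0.00, was -0.00552 with DESeq2, -0.00488 with limma-voom, -0.00515 with DESeq2 size factors, -0.45 with library size only, -0.0020 with no filter and -0.0212 without mitochondrial and ribosomal RNA genes, and it ranged from -0.13 to 0.15 when single libraries were left out (-0.00919, -0.0251, -0.0567, -0.134 and -0.0417 where the sign turned). Sdc4 ranged from -0.264 to 0.0162 and Gpc1 from -0.580 to 0.0142 when single libraries were left out, positive without QZ1-hi replicate 4 and QZ1-hi replicate 3, and Ext1 was -0.0127 with library size only. No sign-turned value passed the test. Gpc3 and Gpc6 were called higher in 16 of 16 alternatives. No paired analysis was possible because the labels do not say which libraries share a mouse. Gpc2 had few counts and a wide interval, and Gpc5 too few counts for a test.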
